A study of Bos taurus with 8 samples.

Results

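The redox and antioxidant genes described here are 10 genes chosen by name: the thioredoxin-arm genes TXN, TXNRD1, PRDX1 and PRDX2, the glutathione-dependent enzymes GLRX and GPX4, the superoxide dismutases SOD1 and SOD2, and the reductases NQO1 and STEAP3. They are 10 of the 18825 genes in the deposited table, and all 10 passed the filter on low values. Polyadenylated RNA was measured in single cells of wildtype bovine embryos on days 6, 7, 8 and 9 after fertilization. The cells came from 6 wildtype libraries, numbered as replicates 1 to 6. A library is a pool of barcoded cells, and the labels name no embryo or sex for a cell. The authors' cell table gives 1 class per age on days 6 and 7, Morula (58 cells) and EB (39 cells). Day 8 holds MB ICM (51 cells) and MB TE (37 cells), and day 9 holds LB EPI (45 cells), LB PE (25 cells) and LB TE (31 cells). ICM, TE, EPI and PE are the field's short forms of inner cell mass, trophectoderm, epiblast and primitive endoderm (hypoblast). The prefixes EB, MB and LB are left unexpanded, as in that table. Another 2 libraries, from embryos that received BE3 mRNA alone or together with guides to SOX2, were not analysed here.

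Cells make superoxide and hydrogen peroxide as by-products of respiration. Superoxide dismutases turn superoxide into peroxide, and peroxiredoxins and glutathione peroxidases remove the peroxide. Thioredoxin and glutaredoxin then return oxidised protein thiols to their reduced state, with electrons that come from NADPH. In blastocysts the trophectoderm is a pumping epithelium with active mitochondria, and the inner cells are usually described as metabolically quieter.

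Levels are in CPM, a cell's reads of a gene scaled to 1000000 reads in all. They were averaged where a library held at least 3 cells of a class, which gave 16 averages from 276 cells. The cells held 48628984 recovered reads, with a median of 150770.5 per cell and a range from 2633 to 747345. LB PE cells were the shallowest, with a median of 39210 reads, where LB EPI and LB TE cells had medians of 196981 and 196521. The averages rest on 13 and 45 cells for Morula (replicates 4 and 6) and 35 for EB (replicate 4). They rest on 24, 21 and 5 cells for MB ICM (replicates 1, 2 and 5), and 21, 12 and 3 for MB TE (replicates 1, 2 and 3). On day 9 they rest on 11, 9 and 24 cells for LB EPI (replicates 2, 3 and 5), 14 and 9 for LB PE, and 21 and 9 for LB TE (replicates 3 and 5). The averages of days 6 and 7 thus come from other libraries than those of days 8 and 9. At this step age cannot be told apart from library in the fit. Replicate 1 also held 2 EB cells, too few for an average. EB has 1 average and no spread of its own. The 10 trophectoderm markers summed to 31303 to 58894 CPM in MB TE, 34385 to 44455 in LB TE and 1664 to 6706 in the averages of the other classes. The 8 epiblast markers summed highest in LB EPI (2577 to 3019 CPM) and the 8 hypoblast markers in LB PE (5900.0 to 6428 CPM), although the hypoblast marker SOX17 was at 0 in LB PE. MB ICM held markers of both, with hypoblast markers at 3964 to 4355 CPM, against 607 to 868 CPM in LB EPI, and epiblast markers at 760.4 to 1171 CPM. Hypoblast markers also summed to 3229 CPM in EB and 1214 to 1706 CPM in Morula. All 48 cell barcodes recur in more than 1 library, so a barcode alone does not name a cell.

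**Figure D1:**
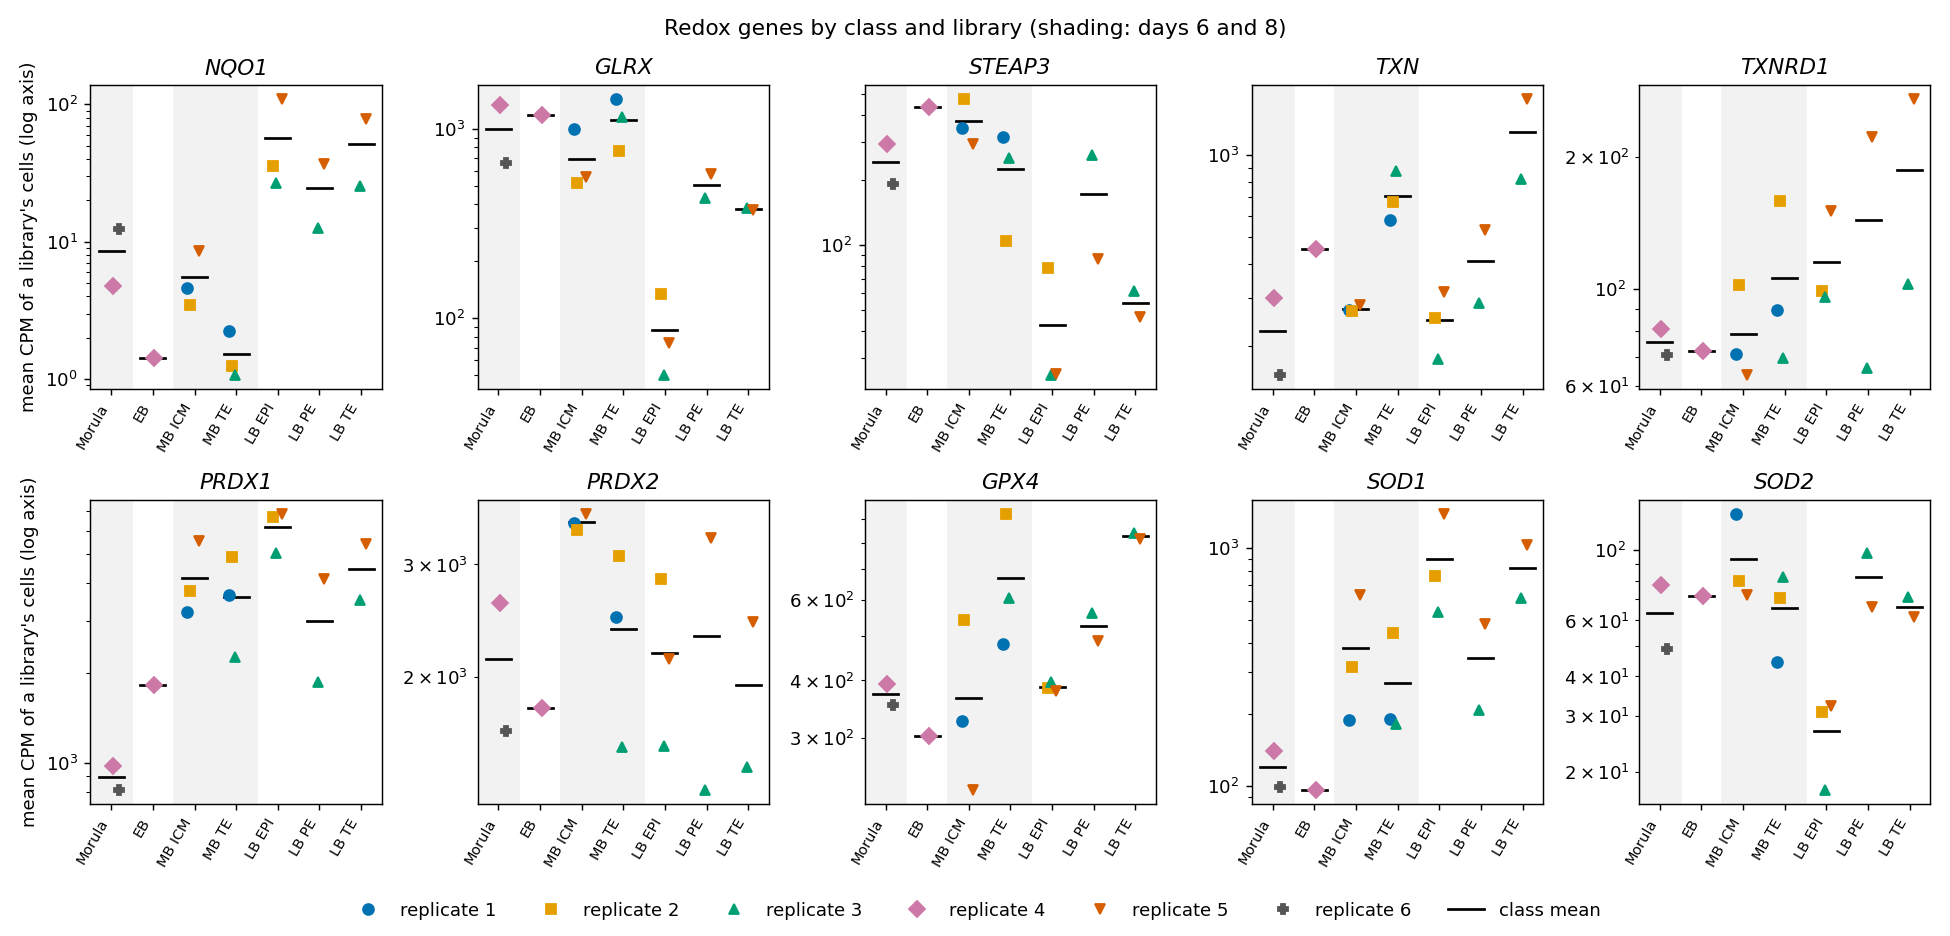
Mean CPM of each redox gene in each library (coloured points) and class (black line, mean of the libraries), on a log axis that differs between panels. GLRX, STEAP3 and SOD2 are lowest in LB EPI, and TXN and GPX4 are highest in LB TE. Every day 9 average of NQO1 stands above every earlier one, the closest pair by a small margin.

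TXN encodes thioredoxin, the small disulfide reductase at the centre of its arm. On days 6 and 7 TXN was at 299 and 157 CPM in Morula (replicates 4 and 6) and 454 CPM in EB. On day 8 it was at 271, 268 and 283 CPM in MB ICM (replicates 1, 2 and 5) and 578, 671 and 875 CPM in MB TE (replicates 1, 2 and 3). On day 9 it was at 253, 179 and 316 CPM in LB EPI (replicates 2, 3 and 5), 288 and 530.0 CPM in LB PE, and 819.5 and 1606 CPM in LB TE (replicates 3 and 5). Every trophectoderm average lay above every average of the other classes of its day. The class mean was 2.58 times as high in MB TE as in MB ICM, a log2 change of 1.41 on the log2(CPM + 10) scale used for all changes (SE 0.28, limma adjusted p = 0.00226). It was 4.86 times as high in LB TE as in LB EPI (log2 change 2.18, SE 0.32, limma adjusted p = 5.86e-05). Within single libraries the difference was 1.07 and 1.29 in replicates 1 and 2 on day 8, and 2.13 and 2.31 in replicates 3 and 5 on day 9. Both calls held under every alternative processing and without each library in turn. TXN fell in LB PE against LB TE by 1.53 on the log2 scale (SE 0.34, limma adjusted p = 0.00864). Leaving out replicate 5 ended that call (adjusted p = 0.105), as did fitting only the compared classes (0.142). LB PE and LB EPI overlapped. By class mean TXN stood in the order LB TE, MB TE, EB, LB PE, MB ICM, LB EPI and Morula. The averages of LB TE and MB TE overlapped, as did those of EB and LB PE and those of the last 3 classes with the next in order.

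TXNRD1 encodes cytosolic thioredoxin reductase, the selenoenzyme that recharges thioredoxin with NADPH. TXNRD1 was at 81.1 and 70.4 CPM in Morula and 72.0 CPM in EB. It was at 70.9, 102 and 63.6 CPM in MB ICM and at 89.4, 159 and 69.5 CPM in MB TE. The day 9 values were 99.1, 95.9 and 151 CPM in LB EPI, 65.8 and 222 CPM in LB PE, and 102 and 272 CPM in LB TE, each in the library order given for TXN. Each class overlapped with its neighbour in the order of class means, and TXNRD1 passed the test in none of the 10 comparisons. Its smallest adjusted p among the comparisons of lineages within a day was 0.385, for LB TE against LB EPI (log2 change 0.58, SE 0.40). TXNRD1 overlaps EID3 in the RefSeq annotation of assembly ARS-UCD2.0, TXN overlaps a long noncoding RNA and GLRX overlaps RHOBTB3. Whether counting used the strand is not stated in the labels, so reads of such partners cannot be told apart.

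PRDX1 and PRDX2 encode cytosolic peroxiredoxins, abundant thiol peroxidases that thioredoxin reduces. PRDX1 was at 977 and 809 CPM in Morula and 1819 CPM in EB. On day 8 PRDX1 was at 3204, 3776 and 5551 CPM in MB ICM and 3642, 4899 and 2264 CPM in MB TE. On day 9 PRDX1 was at 6699.8, 5054 and 6833 CPM in LB EPI, 1859.8 and 4136 CPM in LB PE, and 3513 and 5422 CPM in LB TE. Both Morula averages were below all others, and every LB PE average was below every LB EPI average. From Morula to LB EPI the class mean differed by a factor of 6.94, across the step at which the libraries change. PRDX1 fell in LB PE against LB EPI by 1.11 on the log2 scale (SE 0.28, limma adjusted p = 0.0247). That call was lost under 6 of the 17 alternatives, among them leaving out replicate 2 (adjusted p = 0.0728) or 3 (0.172). Its changes from Morula to EB (1.0, SE 0.39, limma adjusted p = 0.811) and from EB to MB ICM (1.11, SE 0.39, limma adjusted p = 0.463) did not pass the test. The averages of LB EPI, LB TE, MB ICM, MB TE and LB PE overlapped from each to the next in that order of class means, while EB lay below LB PE and Morula below EB.

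PRDX2 had the flattest profile of the 10 genes, with a factor of 1.96 between its highest and lowest class means. It was at 2613 and 1647 CPM in Morula, 1787 CPM in EB, 3488, 3394 and 3598 CPM in MB ICM and 2482, 3096 and 1551 CPM in MB TE. In LB EPI it was at 2850.4, 1562 and 2132 CPM, in LB PE at 1329.7 and 3305 CPM and in LB TE at 1448 and 2437 CPM. The 3 MB ICM averages stood close together and above the other 13, while the other classes overlapped with their neighbours. PRDX2 passed the test in none of the 10 comparisons, and its change from MB ICM to LB EPI was -0.62 (SE 0.27, limma adjusted p = 0.234).

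GLRX encodes glutaredoxin, which removes glutathione from protein thiols. GLRX was at 1341 and 657 CPM in Morula and 1183 CPM in EB. On day 8 it was at 995, 518 and 557 CPM in MB ICM and 1444, 761 and 1153 CPM in MB TE. On day 9 it was at 135, 50.4 and 74.4 CPM in LB EPI, 429.5 and 579.5 CPM in LB PE, and 381 and 371 CPM in LB TE. The 3 LB EPI averages were the lowest of all 16, with a gap to every other average. GLRX fell from MB ICM to LB EPI by 2.80 on the log2 scale (SE 0.33, limma adjusted p = 3.85e-05), and the class mean was 7.98 times as high in MB ICM. It was higher in LB PE than in LB EPI by 2.51 (SE 0.36, limma adjusted p = 0.000257) and in LB TE than in LB EPI by 2.11 (SE 0.36, limma adjusted p = 0.00037). These 3 calls share the LB EPI averages, so they are not independent of each other. All 3 held under every alternative and without each library in turn. Within replicate 2, which holds both MB ICM and LB EPI cells, the fall was from 518 to 135 CPM, and within replicate 5 from 557 to 74.4 CPM. GLRX did not pass the test between MB TE and MB ICM (0.73, SE 0.32, limma adjusted p = 0.176) or between LB TE and MB TE (-1.42, SE 0.37, limma adjusted p = 0.205). The averages of EB, MB TE, Morula, MB ICM and LB PE overlapped in that order, and LB TE and LB EPI stood apart below them.

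GPX4 encodes the selenoenzyme that reduces lipid hydroperoxides in membranes and restrains ferroptosis. GPX4 was at 393 and 354 CPM in Morula and 302 CPM in EB. On day 8 it was at 327, 541 and 230.5 CPM in MB ICM and 481, 923 and 605 CPM in MB TE. The day 9 values were 384, 397 and 379 CPM in LB EPI, 561 and 489 CPM in LB PE, and 841 and 813 CPM in LB TE. The day 8 classes overlapped, since MB ICM of replicate 2 exceeded MB TE of replicate 1. The averages of the 3 day 9 classes did not overlap with each other. GPX4 was higher in LB TE than in LB EPI by 1.14 (SE 0.29, limma adjusted p = 0.00869), which did not hold when replicate 3 (adjusted p = 0.109) or 5 (0.0614) was left out. Its rise in MB TE over MB ICM was 0.85 (SE 0.26, limma adjusted p = 0.0382). It was lost under 9 of the 17 alternatives, among them leaving out replicate 1 (adjusted p = 0.0706), 2 (0.081), 3 (0.12) or 5 (0.194), and the change was 0.60 without replicate 5. Within replicates 1 and 2 it was 0.54 and 0.76. The order of class means was LB TE, MB TE, LB PE, LB EPI, Morula, MB ICM and EB, with LB PE and LB EPI the only neighbours whose averages were separate.

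SOD1 encodes the copper and zinc superoxide dismutase of the cytosol, and SOD2 the manganese enzyme of mitochondria. SOD1 was at 140.2 and 99.1 CPM in Morula and 96.0 CPM in EB. On day 8 SOD1 was at 189, 316 and 636 CPM in MB ICM and 190.2, 439 and 181 CPM in MB TE. On day 9 SOD1 was at 765, 538 and 1387 CPM in LB EPI, 208 and 478 CPM in LB PE, and 613 and 1031 CPM in LB TE. The day 6 and 7 averages were the lowest and those of LB EPI and LB TE overlapped at the top, with a factor of 9.34 between LB EPI and EB. SOD1 was called in none of the comparisons. From MB ICM to LB EPI the change was 1.29 (SE 0.38, limma adjusted p = 0.0549), and in LB PE against LB EPI it was -1.35 (SE 0.42, limma adjusted p = 0.0665). With cells of at least 50000 reads these were 1.44 (adjusted p = 0.00756) and -1.67 (0.00609), past the threshold. From MB TE to LB TE the change was 1.48 (SE 0.43, limma adjusted p = 0.307). The averages of LB EPI, LB TE, MB ICM, LB PE and MB TE overlapped in that order.

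SOD2 was at 77.7 and 48.7 CPM in Morula and 71.9 CPM in EB. On day 8 SOD2 was at 129.6, 79.6 and 72.3 CPM in MB ICM and 44.5, 70.6 and 82.2 CPM in MB TE. On day 9 SOD2 was at 30.8, 17.6 and 32.3 CPM in LB EPI, 98.0 and 66.3 CPM in LB PE, and 71.0 and 61.6 CPM in LB TE. LB EPI was below every other average, the reverse of its place for SOD1. SOD2 fell from MB ICM to LB EPI by 1.49 on the log2 scale (SE 0.32, limma adjusted p = 0.00645), which missed the threshold only when replicate 3 was left out (adjusted p = 0.0593). It was higher than LB EPI in LB PE by 1.33 (SE 0.35, limma adjusted p = 0.0271) and in LB TE by 1.08 (SE 0.35, limma adjusted p = 0.039). The LB PE call was lost under 9 of the 17 alternatives, among them leaving out replicate 2 (adjusted p = 0.0678), 3 (0.269) or 5 (0.0688). The LB TE call was lost under 7, among them leaving out replicate 2 (0.0761), 3 (0.325) or 5 (0.106). The averages of MB ICM, LB PE and EB overlapped in that order, as did those of LB TE, MB TE and Morula.

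NQO1 encodes a quinone reductase and is a classical target of the transcription factor NRF2. NQO1 was at 4.77 and 12.3 CPM in Morula and 1.42 CPM in EB. On day 8 it was at 4.57, 3.49 and 8.53 CPM in MB ICM and 2.23, 1.24 and 1.07 CPM in MB TE. On day 9 it was at 35.3, 26.9 and 109.9 CPM in LB EPI, 12.6 and 37.0 CPM in LB PE, and 25.4 and 78.1 CPM in LB TE. All 7 day 9 averages exceeded all 9 earlier ones. The margin was small between LB PE of replicate 3 (12.6 CPM, 10 reads) and Morula of replicate 6 (12.3 CPM, 31 reads). Few reads stand behind the low levels, with 44 NQO1 reads in all Morula cells, 8 in EB, 27 in MB ICM and 26 in MB TE, against 617 in LB EPI, 20 in LB PE and 295 in LB TE. NQO1 rose from MB ICM to LB EPI by 2.0 (SE 0.37, limma adjusted p = 0.00241), and the class mean was 10.4 times as high in LB EPI. That call held under every alternative, and with single libraries left out the change ranged from 1.58 (replicate 5) to 2.25 (replicate 3). With pseudocounts of 1 and 100 CPM in place of 10 it was 3.07 and 0.56. Within replicates 2 and 5, which had averages of both classes, NQO1 was at 3.49 and 35.3 CPM, and at 8.53 and 109.9 CPM. The rise from MB TE to LB TE was 2.13 (SE 0.43, limma adjusted p = 0.0423). It was lost under 13 of the 17 alternatives, and leaving out any 1 of the 6 libraries ended it, with adjusted p from 0.0562 (replicate 6) to 0.199 (replicate 1). Within replicate 3, the only library with averages of both classes, NQO1 was at 1.07 and 25.4 CPM, the former from 3 cells. The day 9 classes overlapped with each other.

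STEAP3 encodes a ferrireductase that reduces iron taken up in endosomes. STEAP3 was at 292 and 193 CPM in Morula and 434 CPM in EB. On day 8 it was at 349, 475 and 295 CPM in MB ICM and 316, 105 and 252 CPM in MB TE. The day 9 values were 78.2, 25.2 and 25.5 CPM in LB EPI, 260.5 and 86.0 CPM in LB PE, and 61.6 and 46.7 CPM in LB TE. LB EPI and LB TE were below every average of days 6 to 8, and the 2 LB PE averages were far apart. Those 2 averages came from 203 reads of 866122 in replicate 3 and 130 reads of 903586 in replicate 5, which if pooled would lie closer together. STEAP3 fell from MB ICM to LB EPI by 2.97 on the log2 scale (SE 0.42, limma adjusted p = 0.000385), with a class mean 8.67 times as high in MB ICM. That call held under every alternative and without each library. Within replicate 2 the difference was -2.46 and within replicate 5 -3.10. STEAP3 was higher in LB PE than in LB EPI by 1.79 (SE 0.46, limma adjusted p = 0.0298). This call was lost under 6 of the 17 alternatives. Without replicate 3 the change was 0.90 (adjusted p = 0.45) and without replicate 5 it was 2.32 (0.0679). From MB TE to LB TE the change was -1.61 (SE 0.48, limma adjusted p = 0.325). EB and MB ICM overlapped at the top of the order of class means, and Morula lay below both. Morula, MB TE and LB PE overlapped from each to the next. MB TE of replicate 1 (316 CPM) exceeded MB ICM of replicate 5 (295 CPM). LB TE and LB EPI overlapped at the bottom.

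**Figure D2:**
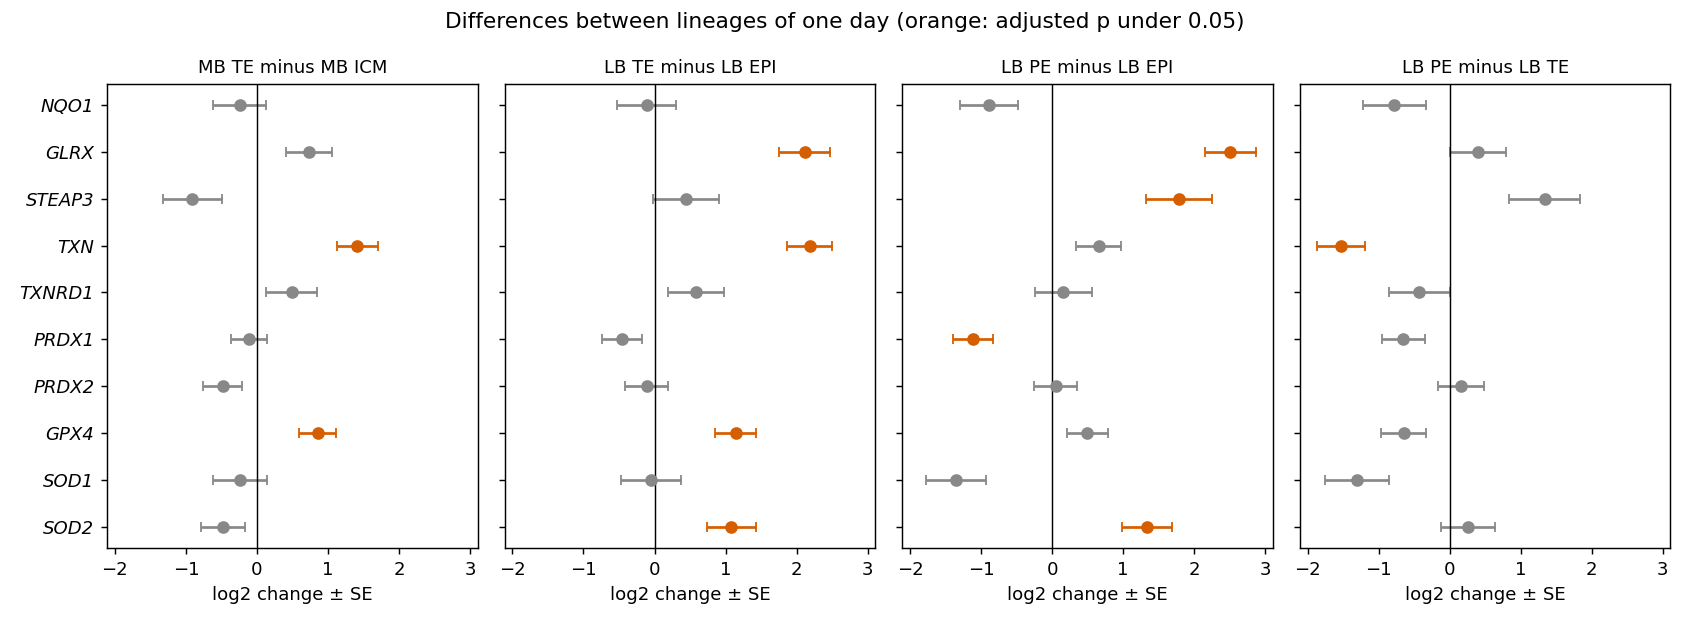
Log2 change with its standard error for each gene in the 4 comparisons of lineages on the same day, called changes in orange. TXN is called in 3 of the 4 panels, and GLRX stands furthest to the right in LB PE minus LB EPI at 2.51.

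On day 8, trophectoderm was compared with inner cell mass. TXN and GPX4 rose in MB TE, so 2 of the 10 genes were called, both higher, where 10.1% of the 12540 tested genes were called. The median change of the 10 genes was -0.18 and that of all tested genes -0.04. On day 9, GLRX, TXN, GPX4 and SOD2 rose in LB TE against LB EPI, which is 4 of 10, where 15.2% of all tested genes were called. Their median was 0.52, against -0.04 for all tested genes. A test of the difference between the day 9 and day 8 trophectoderm effects called 0 of 10, where 0.367% of all tested genes were called. At an unadjusted p under 0.05 it held 3 of the 10, and limma-voom on the recovered reads called 0. These 3 were SOD2 (1.56, SE 0.47, limma adjusted p = 0.171), GLRX (1.38, SE 0.48, limma adjusted p = 0.275) and STEAP3 (1.36, SE 0.62, limma adjusted p = 0.492). A larger response on day 9 was therefore not shown for any of the 10 genes.

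Primitive endoderm was compared with both other day 9 lineages. Against LB EPI, GLRX, STEAP3 and SOD2 were higher and PRDX1 lower in LB PE. That is 4 of 10 called, where 5.39% of all tested genes were called, with medians of 0.33 and -0.01. This comparison, LB TE against LB EPI and LB EPI against MB ICM share the LB EPI averages, so their counts are not independent. Against LB TE, 1 of 10 was called, the fall of TXN, where 5.85% of all tested genes were called, with medians of -0.54 and 0.02. LB PE averages rested on 866122 and 903586 reads, against 1691064 to 4845838 for LB EPI. Of the 25 LB PE cells 11 had at least 50000 reads, and averages of such cells rested on 5 cells each in replicates 3 and 5. With these cells 6 genes were called against LB EPI and 4 against LB TE. The added calls against LB EPI were NQO1 (-1.63, adjusted p = 0.0121) and SOD1 (-1.67, adjusted p = 0.00609), each lower in LB PE.

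**Figure D3:**
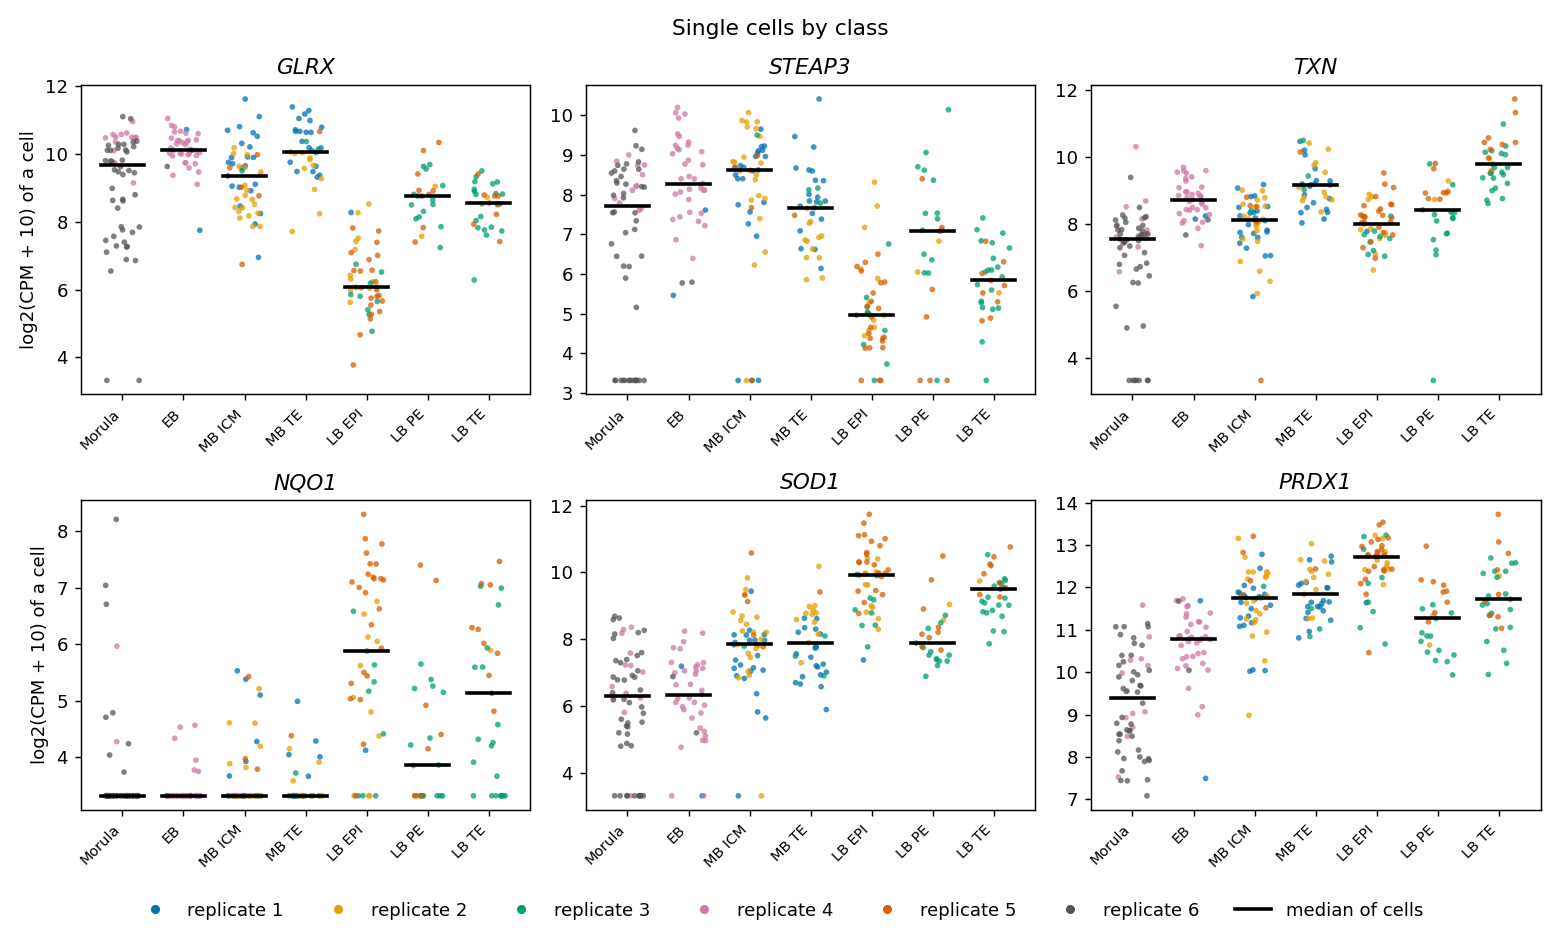
Values of single cells on the log2(CPM + 10) scale for 6 of the genes by class, coloured by library, with the median of the cells as a black line. GLRX in LB EPI cells lies below most cells of the other classes, while NQO1 is at 0 CPM in most cells before day 9 and spreads widely on day 9.

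Single cells gave the same picture of GLRX in LB EPI. The median cell was at 57.0 CPM with a range from 3.72 to 357 in LB EPI, against 641 (97.0 to 3126) in MB ICM, 422 (140.9 to 1281) in LB PE and 365 (67.8 to 712) in LB TE. For TXN the median cell was at 869.7 CPM (380.4 to 3391) in LB TE and 244 (88.4 to 725) in LB EPI. For NQO1 the median cell was at 48.9 CPM in LB EPI, with a range from 0 to 305, and at 0 CPM in Morula, EB, MB ICM and MB TE. For SOD1 it was at 958 CPM (157 to 3400) in LB EPI, 227 (109 to 1430) in LB PE and 714 (223 to 1726) in LB TE. Cells of a library are not replicates, so these values are a description.

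Classes of day 8 were compared with classes of day 9. From MB ICM to LB EPI, NQO1 rose and GLRX, STEAP3 and SOD2 fell, 4 of 10 called where 5.1% of all tested genes were called, with medians of 0.00 and 0.02. The summed hypoblast markers were lower in LB EPI as well (607 to 868 CPM, against 3964 to 4355 CPM). This sum was also at 3229 CPM in EB and 1214 to 1706 CPM in Morula, so a level above LB EPI was not particular to MB ICM and LB PE. GLRX, STEAP3 and SOD2 were each called higher in LB PE than in LB EPI, and GLRX and SOD2 also in LB TE. The part of a changed share of hypoblast-like cells in these falls was not tested, and neither was LB PE against MB ICM. The LB PE and MB ICM averages overlapped for GLRX and SOD2, while both LB PE averages of STEAP3 lay below all 3 of MB ICM. From MB TE to LB TE, only NQO1 was called, 1 of 10 where 0.191% of all tested genes were called, with medians of 0.37 and 0.03. Whether the change from MB TE to LB TE differed from that from MB ICM to LB EPI is the same contrast as the difference of trophectoderm effects above, in which none of the 10 was called. GLRX and STEAP3 were lower in LB TE than in every MB TE average, without passing the test. From Morula to EB, 0 of 10 were called where 0.0797% of all tested genes were called. At an unadjusted p under 0.05 there were 2, TXN and PRDX1, and limma-voom called 0. From EB to MB ICM, 0 of 10 were called where 0.175% of all tested genes were called, with 3 at an unadjusted p under 0.05 (PRDX1, PRDX2 and SOD1) and 0 by limma-voom. From EB to MB TE, 0 of 10 were called where 0.997% of all tested genes were called. At an unadjusted p under 0.05 there were 3 (PRDX1, GPX4 and SOD1), and limma-voom called 1, GPX4 (1.45, limma adjusted p = 0.0452).

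**Figure D4:**
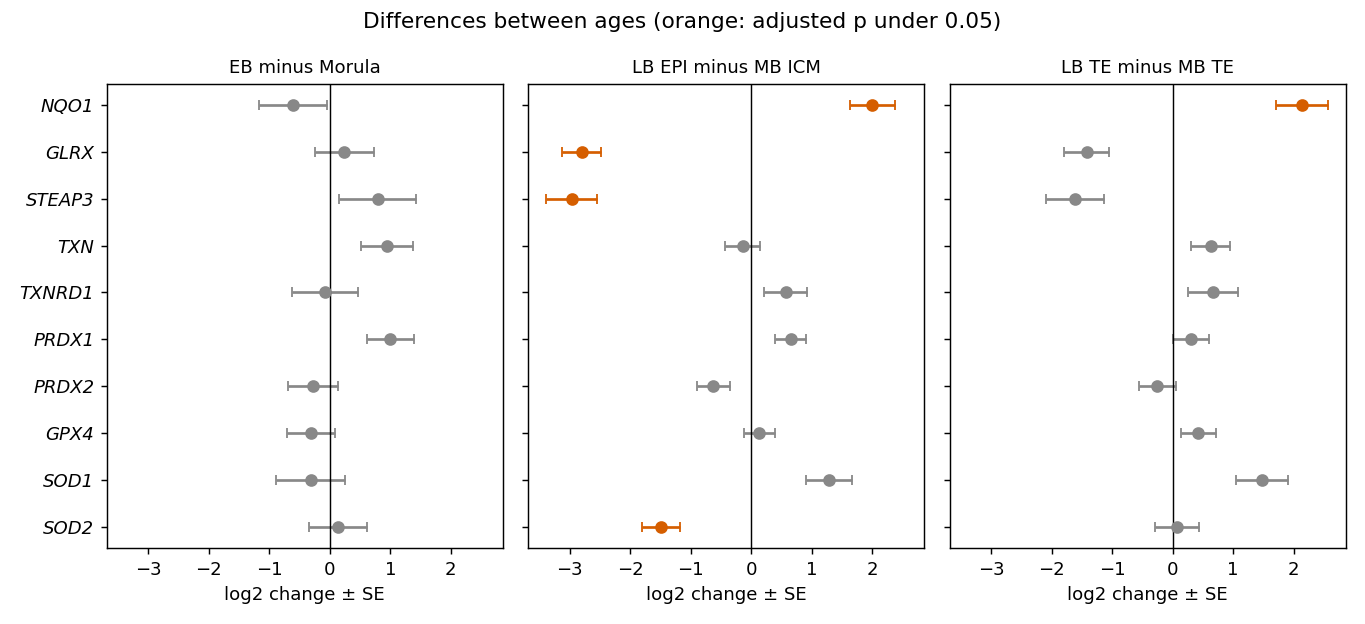
Log2 change with its standard error for each gene between ages, called changes in orange. The day 8 to day 9 panels share the direction of most of the genes, among them NQO1 (2.0 and 2.13), SOD1, GLRX and STEAP3. Called changes appear for 4 genes from MB ICM to LB EPI and 1 from MB TE to LB TE.

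Replicates 3 and 5 each had averages of all 3 day 9 classes, and some genes differed between these 2 libraries in each class. By the mean over cells NQO1, TXN, TXNRD1, PRDX1, PRDX2 and SOD1, 6 of the 10, were higher in replicate 5 in LB EPI, LB PE and LB TE alike. Of the 12540 tested genes 1364, or 10.9%, were so. This pattern was singled out after the values were seen. The ratio of replicate 5 to replicate 3 was 4.08, 2.93 and 3.07 for NQO1 in LB EPI, LB PE and LB TE, and 1.77, 1.84 and 1.96 for TXN. In LB PE the NQO1 values rest on 10 reads of 866122 in replicate 3 and 10 reads of 903586 in replicate 5. Pooled reads thus show no rise of NQO1 in LB PE, and its ratio there depends on the equal weight of each cell. For SOD1 it was 2.58, 2.30 and 1.68. GPX4 differed little between the libraries, with ratios of 0.956, 0.872 and 0.967. For NQO1 the difference of LB EPI from MB ICM was 1.75 in replicate 2 and 2.69 in replicate 5.

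Profiles of the 10 genes were compared with each other over the 16 averages, which share libraries and depth, as a description. PRDX1 and SOD1 went together (r = 0.86), as did GLRX and STEAP3 (0.81), NQO1 and SOD1 (0.78) and TXN and GPX4 (0.70), while NQO1 and STEAP3 were opposed (-0.83). Within a library and class, over the 229 cells with at least 50000 reads, these were weak: 0.15 for PRDX1 and SOD1, 0.32 for GLRX and STEAP3, 0.19 for NQO1 and SOD1, 0.24 for TXN and GPX4 and -0.08 for NQO1 and STEAP3. The highest within-class values were 0.48 for GLRX and PRDX2 and 0.41 for PRDX1 and PRDX2. The correlation of single genes with a cell's depth reached 0.25, for TXN.

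The genes whose profiles were most like a member's were sought for the 3 members with the widest range of class means on the log2(CPM + 10) scale, by Pearson's r over the 16 averages. On the plain CPM scale NQO1 had the widest range, a factor of 40.4, but the added 10 CPM damps its low levels. For GLRX they were IDH3A (r = 0.907), a subunit of mitochondrial isocitrate dehydrogenase, ODC1 (0.906), the first enzyme of polyamine synthesis, and ABHD11 (0.899), a mitochondrial hydrolase. For STEAP3 they were CYC1 (0.943), a subunit of respiratory complex III, PDP2 (0.928), a phosphatase that activates pyruvate dehydrogenase, and ODC1 (0.866). For SOD1 they were FTL (0.895), the light chain of ferritin, ABRACL (0.883) and SSLP1 (0.881). ODC1 was at 844 CPM in MB ICM and 299 in LB EPI, and CYC1 at 529 and 257.

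The wider redox network was followed in 8 lists of 142 further genes, of which 134 were in the table and 121 were tested. In LB TE against LB EPI 26 rose and 6 fell, 26.4% of those tested, with a median of 0.32. Of all tested genes 15.2% were called, with 8.27% higher and 6.9% lower, which is the background for the counts of each list. The list of the NRF2 axis and of quinone, haem and ferroptosis enzymes had 7 rises and 0 falls among 19 tested. HMOX2, the constitutive haem oxygenase, was at 136 CPM in LB TE, and at 16.7 CPM in LB EPI (log2 change 2.52, SE 0.35, limma adjusted p = 4.31e-05). AIFM2, which reduces coenzyme Q and restrains ferroptosis, was at 54.3 and 4.02 CPM (2.23, SE 0.32, limma adjusted p = 5.99e-05), and SQSTM1, an autophagy receptor that binds KEAP1, at 114 and 25.2 CPM (1.80, SE 0.36, limma adjusted p = 0.00129). Of 19 thioredoxin and peroxiredoxin genes 4 rose and 0 fell. SRXN1, which reactivates peroxiredoxins, was higher by 2.20 (limma adjusted p = 0.00339), a call lost without replicate 5 (0.0709), and the disulfide isomerase TXNDC5 by 1.96 (limma adjusted p = 0.000689), lost without replicate 3 (0.0539). Of 12 iron genes 3 rose and 0 fell, with the ferritin heavy chain FTH1 at 6968 CPM in LB TE and 2676 CPM in LB EPI (1.40, SE 0.23, limma adjusted p = 0.000216). FTH1 has near-identical copies, so its value is uncertain. Of 5 superoxide and peroxide genes 3 rose and 0 fell, catalase (CAT) among them by 1.15 (limma adjusted p = 0.0153), lost without replicate 2 (0.0531) or 5 (0.197). Of 14 genes of NADPH supply 3 rose and 3 fell, led by PGD of the pentose phosphate pathway, at 496 CPM, against 1961 CPM for LB EPI (-1.99, SE 0.29, limma adjusted p = 7.47e-05). Of 29 glutathione genes 2 rose and 1 fell, and GCLM, a subunit of the enzyme that starts glutathione synthesis, was higher by 1.83 (limma adjusted p = 0.00413), lost without replicate 5 (0.121). Of 16 selenoprotein genes 2 rose and 2 fell, with SELENOH lower by a log2 change of -1.94 (SE 0.27, limma adjusted p = 4.13e-05). Of 7 oxidant-source genes 2 rose and 0 fell.

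In MB TE against MB ICM 13 of the 121 genes rose and 10 fell, 19.0%, with a median of 0.10, where 10.1% of all tested genes were called, 5.97% higher and 4.11% lower. AIFM2 was at 57.9 CPM in MB TE and 3.57 in MB ICM (2.37, SE 0.29, limma adjusted p = 1.52e-05). ACSL4, which readies polyunsaturated fatty acids for membranes, was at 183 and 34.9 CPM (2.14, SE 0.34, limma adjusted p = 0.000253), and OSGIN1 was higher by 1.57 (SE 0.32, limma adjusted p = 0.00215). With these, the NRF2 list had 4 rises and 0 falls. The NADPH supply list had 0 rises and 4 falls among 14 tested, such as the transketolase TKT at 350.0 and 921 CPM (-1.35, SE 0.27, limma adjusted p = 0.00207). PGD was lower too (-1.27, limma adjusted p = 0.00308), lost without replicate 2 (0.0521). The thioredoxin list had 4 rises and 1 fall of 19, the glutathione list 2 and 3 of 29, the iron list 2 and 1 of 12 and the selenoprotein list 1 and 1 of 16. TXNDC5 (1.58, SE 0.32, limma adjusted p = 0.00262), SELENOP (1.49, SE 0.31, limma adjusted p = 0.00281) and SELENOH (-1.26, SE 0.24, limma adjusted p = 0.00153) held without each library in turn. None of the 5 superoxide and peroxide genes or the 7 oxidant-source genes was called.

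In LB PE against LB EPI 7 of the 121 rose and 4 fell, 9.09%, with a median of 0.13, where 5.39% of all tested genes were called, 2.98% higher and 2.41% lower. The glutathione list had 3 rises and 1 fall. GCLC, the catalytic subunit that starts glutathione synthesis, was at 141 CPM, against 23.9 CPM for LB EPI (2.17, SE 0.36, limma adjusted p = 0.00116), lost without replicate 5 (0.0608). GPX2, a glutathione peroxidase, was at 111 and 12.7 CPM (2.29, SE 0.45, limma adjusted p = 0.00457), lost without replicate 5 (0.0709), and the glutathione transferase GSTP1 at 2216 and 629 CPM (1.67, SE 0.33, limma adjusted p = 0.00457), lost without replicate 5 (0.113). PGD was lower in LB PE, at 545 and 1961 CPM (-1.90, SE 0.29, limma adjusted p = 0.000567), and held without each library. In LB PE against LB TE 2 rose and 11 fell, 10.7%, with a median of -0.11, where 5.85% of all tested genes were called, 2.46% higher and 3.39% lower. AIFM2 was at 5.04 CPM, against 54.3 CPM for LB TE (-2.10, SE 0.35, limma adjusted p = 0.000806). HMOX2 was at 22.2 and 136 CPM (-2.23, SE 0.38, limma adjusted p = 0.00106), lost without replicate 5 (0.0879).

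**Figure D5:**
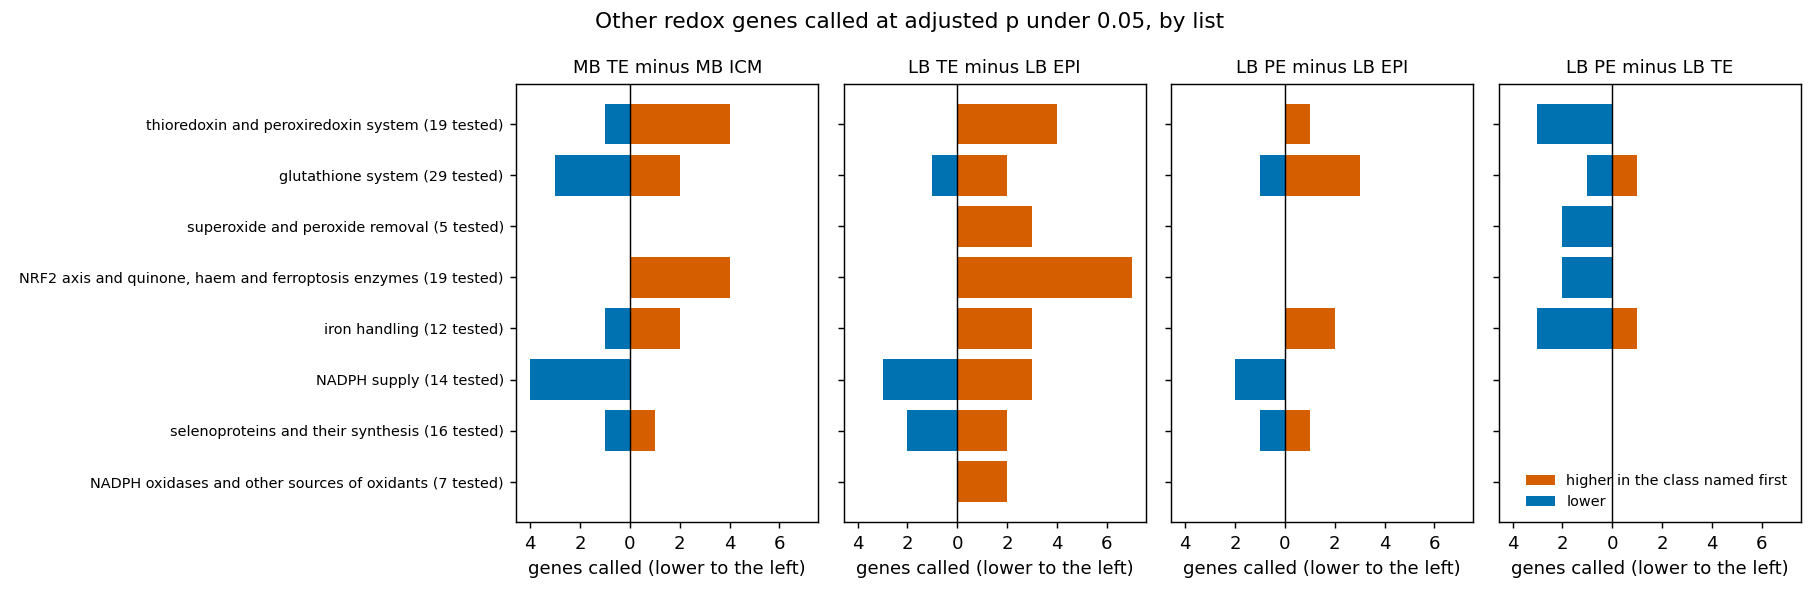
Numbers of other redox genes called in the 4 comparisons of lineages on the same day, by list, with rises to the right in orange and falls to the left in blue. The list of the NRF2 axis holds 7 rises in LB TE minus LB EPI and 4 in MB TE minus MB ICM, with 0 falls in both.

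From MB ICM to LB EPI 2 of the 121 rose and 4 fell, 4.96%, with a median of 0.00, a share near the 5.1% of all tested genes. The gene PGD was higher in LB EPI, at 1961 against 794 CPM (1.38, SE 0.27, limma adjusted p = 0.0032), lost without replicate 2 (0.0628). From EB to MB TE 2 rose and 0 fell, 1.65% where 0.997% of all tested genes were called. They were AIFM2 (2.29, limma adjusted p = 0.0107) and PRDX5 (1.61, limma adjusted p = 0.0456). Both were lost without replicate 2 (0.0881 and 0.191) or 3 (0.0608 and 0.174), and PRDX5 also without replicate 5 (0.0848) or 6 (0.0544). From EB to MB ICM, where 0.175% of all tested genes were called, 1 fell, ACSL4 (-2.72, limma adjusted p = 0.0255), lost without replicate 3 (0.164) or 5 (0.11). From Morula to EB, from MB TE to LB TE and in the difference of trophectoderm effects 0 were called, with 3, 18 and 15 at an unadjusted p under 0.05 and 0 by limma-voom in each.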

How the data were processed

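The authors deposited natural log values, ln(1 + x) with x scaled to 10000 per cell, for 286 of the 288 single cells in their cell table. Trim Galore, HISAT2, featureCounts, Seurat and the build ARS-UCD1.2 are listed in the submitters' processing notes. Not given in the sources used here are versions, the handling of reads from near-identical gene copies, the use of molecular identifiers and the way classes were assigned. The log was undone, and 100% of values were whole multiples of each cell's smallest step within 0.1 reads, which gave each cell's depth. Values were set on a CPM scale, averaged by library and class where at least 3 cells were present, and transformed as log2(CPM + 10), which understates changes of low genes. Genes that reached 10 CPM in at least 1 average, the number the smallest class has, were tested (12540). limma 3.58.1 (R 4.3.3, statmod 1.5.0, trend and robust options) fitted all 16 averages at once, and took the library as a random block, since most libraries hold more than 1 class (consensus correlation 0.18). Benjamini-Hochberg adjustment ran over all tested genes and calls were made under 0.05. Nothing says that libraries hold separate embryos. The p-values rest only on the variation of class averages over libraries, pooled over classes with the block, which may be technical. EB has 1 average and adds nothing to this spread. Every value of a fold change or adjusted p is from this fit unless an alternative is named. The fit was tested on simulated normal data with large changes set in MB TE, for MB TE minus MB ICM only. Smaller changes and classes with fewer averages were not covered.

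The 10 genes, the 8 wider lists and the comparisons were chosen with earlier results of these data known. Of the wider lists, up to 3 called genes with the smallest adjusted p per list and comparison could be named, and the text prints a part of them. Alternatives were the pseudocount, the filter, the cells per average, cell depth, the order of averaging and log, TMM scaling, the block, the classes in the fit, leaving out each library and, added after the data were seen, limma-voom on summed reads. Symbols of 17114 genes, the 10 among them, matched the RefSeq gene table of ARS-UCD2.0, which is not the authors' build, so none of its coordinates are given. No sequences are printed.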

Additional observations from a re-analysis of the deposited data

How the results depend on the processing

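Of the 16 calls made for the 10 genes, 7 held under all 17 alternatives (TXN in both trophectoderm comparisons, GLRX in 3 comparisons, NQO1 and STEAP3 from MB ICM to LB EPI), and no direction among the called changes was reversed. In MB TE minus MB ICM 1 gene in place of 2 was called with a pseudocount of 100, with no filter, with at least 5 cells per average, with no replicate block and with only the compared classes, and 1 to 2 without single libraries. In LB TE minus LB EPI 2 to 4 were called without single libraries, against 4. In LB PE minus LB EPI the 4 calls became 2 with a pseudocount of 100, 1 with no filter, 1 with no replicate block, 6 in deep cells (within 1.5 times) and 1 to 4 without single libraries. In LB PE minus LB TE the 1 call became 4 in cells of at least 50000 reads, 2 with the mean of log2 values, 2 with the library as a fixed replicate block, 2 with limma-voom, 0 with only the compared classes and 0 to 1 without single libraries. In LB TE minus MB TE the 1 call became 0 with a pseudocount of 100, no filter, at least 5 cells, no replicate block, a fixed replicate block, only the compared classes and limma-voom, and 0 to 1 without single libraries. In MB TE minus EB limma-voom called 1 in place of 0. The cause of these shifts was not tested. Counts over all tested genes ranged across alternatives from 0 to 83 for EB minus Morula (10 as reported), 0 to 85 for MB ICM minus EB (22), 28 to 322 for MB TE minus EB (125), 635 to 1654 for MB TE minus MB ICM (1264), 851 to 3137 for LB TE minus LB EPI (1902), 260 to 994 for LB PE minus LB EPI (676), 81 to 1246 for LB PE minus LB TE (734), 315 to 1134 for LB EPI minus MB ICM (640), 3 to 86 for LB TE minus MB TE (24) and 0 to 155 for the difference of trophectoderm effects (46). With the mean of log2 values the percentage higher among called genes moved from 59.3% to 78.7% in MB TE minus MB ICM, 55.3% to 24.5% in LB PE minus LB EPI, 42.1% to 17.6% in LB PE minus LB TE, 64.5% to 83.9% in LB EPI minus MB ICM, 53.6% to 69.7% in MB TE minus EB and 58.7% to 30.3% in the difference of trophectoderm effects. Without replicate 5 it was 78.8% in LB PE minus LB EPI and 71.6% in LB PE minus LB TE, and without replicate 3 it was 65.6% in LB TE minus LB EPI, against 54.5%. With no filter it was 32.2% in MB TE minus EB. With TMM scaling 67.6% of the genes called in MB TE minus EB were higher, in place of 53.6%, and the median of all genes moved from -0.14 to -0.02. The fixed block could not be fitted for the 2 comparisons of EB with day 8, leaving out replicate 4 leaves no EB average, and with only the compared classes 5 comparisons were fitted without the block.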

Other observations

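Some library and class pairs held 1 or 2 cells and entered no average. The single LB TE cell of replicate 2, the deepest of all cells at 747345 reads, had GLRX at 412 CPM, TXN at 981 CPM and NQO1 at 49.5 CPM. The single LB EPI cell of replicate 1 had GLRX at 299 CPM and NQO1 at 7.47 CPM. The single MB TE cell of replicate 5 had TXN at 1123 CPM and GLRX at 1606 CPM. The 2 LB PE cells of replicate 2 averaged GLRX at 349, STEAP3 at 79.9, PRDX1 at 2087 and SOD2 at 16.9 CPM. Their SOD2 mean, from 6 reads in 1 cell, was below every LB EPI average, and their NQO1 was at 0 CPM. Their GPX4 mean was at 1059 CPM, above both LB TE averages. It came from 133 reads of 187336 in the 2 cells, which if pooled would lie below both LB TE averages. The single LB TE cell of replicate 2 had GPX4 at 1160 CPM. The 2 EB cells of replicate 6 averaged 936 CPM of GLRX, 231 CPM of TXN and 45.2 CPM of STEAP3, and those of replicate 1 had 937, 282 and 109.8 CPM.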
